A study of Mus musculus with 4 samples.

Results

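Foxo1 peaks were examined at the genes that carry and tune the T cell receptor signal in regulatory T cells of the mouse, which the labels call nTreg. The loci were those of the receptor chains Cd3g, Cd3d and Cd3e, the co-receptor Cd4, the kinase Lck, the receptors Cd5 and Cd6, and the phosphatase Ptprc. Members were all peaks of 3 deposited lists whose centre lay in 1 of 5 windows of the mm9 build. The windows were chromosome 9 from 44.72 to 44.87 Mb (Cd3g-Cd3d-Cd3e), chromosome 6 from 124.76 to 124.90 Mb (Cd4), chromosome 4 from 129.17 to 129.31 Mb (Lck), chromosome 19 from 10.73 to 10.95 Mb (Cd5-Cd6) and chromosome 1 from 139.90 to 140.13 Mb (Ptprc), 880 kb in all. They held 77 of 77652 deposited intervals, namely 33 of 16473 in the antibody list, 34 of 57748 in the streptavidin list and 10 of 3431 in the third list.

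The antibody list came from a precipitation with a Foxo1 antibody (Abcam) from cells of wild-type B6 mice. The streptavidin list came from Foxo1tagBirA mice, whose own Foxo1 protein carries biotin that streptavidin captures. Each route had 1 ChIP and 1 input library, and no label gives the age or number of the animals. The third list was deposited with the input library of the antibody route under a name that gives both routes, and each of its 10 intervals here held a peak of both lists. With 1 library per group and no read counts in the files, read depth is unknown, no replicate error exists and no comparison between the routes was tested. The intervals given below are exact 95% intervals that cover counting error over peaks only.

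Foxo1, a forkhead transcription factor, acts in the nucleus of cells with little PI3K and Akt activity. Engagement of the T cell receptor switches that pathway on, so that Akt phosphorylates Foxo1 and it leaves the nucleus. At the receptor, the CD3 chains pass the signal inwards, CD4 binds MHC class II and brings Lck to the complex, and Lck phosphorylates the CD3 tails. CD45, the product of Ptprc, removes an inhibitory phosphate from Lck, while CD5 and CD6 are scavenger-receptor family proteins that dampen the signal.

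The sequence under the peaks could not be read, as no mm9 genome was used here, and no peak was placed relative to an exon, intron or start site. RefSeq promoter sequences (build GRCm38.p6, 250 bases before to 50 after a start) were matched for 6 of the 8 genes, as 8 promoter windows, and Cd4 and Cd6 were not in the table. None of the 8 held the forkhead letters GTAAACA on either strand, against 3.65% of 32851 promoter windows. The shorter letters TAAACA, which lie within GTAAACA, were found in 1 of the 8, that of Cd5, against 13.4% of all. The match reads TGTTTA on the gene's strand and starts 25 bases into the transcript. It is shown because it was the only forkhead match in the members' promoters, with the match in capitals, at chr19:10738933-10738962 of GRCm38.p6, minus strand:
Cd5: cctttccaccccTGTTTAtgccccctccct
These promoter positions are of another build than the peaks, and whether a peak lies on them was not tested. A match is a run of letters and not a binding site.

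In the order of neighbouring genes, Cd3g, Cd3d and Cd3e follow each other between Ube4a, a ubiquitin ligase, and Mpzl2. Cd4 lies between Gpr162 and Lag3, an inhibitory receptor that also binds MHC class II. Lck lies between Hdac1, a histone deacetylase, and Fam167b, and Cd5 and Cd6 are adjacent between Vps37c and Slc15a3. Ptprc lies between Nr5a2 and Atp6v1g3. The windows are wider than the genes, so a peak in a window is a peak near these genes and is not assigned to one of them.

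Antibody and third-list peaks were denser in the windows than in the lists as a whole, and streptavidin peaks were so by a smaller margin. The antibody list had 37.5 peaks per Mb in the windows and 6.41 over all chromosomes, a ratio of 5.85 (95% exact interval 4.03 to 8.21). For the streptavidin list the densities were 38.6 and 22.5 per Mb, a ratio of 1.72 (1.19 to 2.40), which rests on the Cd4 and Cd5-Cd6 windows. Without Cd4 it was 1.44 (0.924 to 2.15) and without Cd5-Cd6 1.55 (0.983 to 2.33), both within counting error of the list density. For the third list they were 11.4 and 1.34 per Mb, a ratio of 8.51 (4.08 to 15.6). Each third-list interval here held a peak of both other lists, so this ratio is not a measurement separate from theirs. Over the whole series the antibody list is the shorter one, yet in these windows it held nearly as many peaks as the streptavidin list. The background covers whole chromosomes, gene-poor stretches included, and was not matched for gene content. Peaks of 1 locus are also not independent of each other.

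Antibody peaks were more numerous at 4 of the 5 loci than at Ptprc. Lck had 8 antibody peaks, a number reached by 0.588% of 17175 autosomal windows of the same length. Cd5-Cd6 had 10 (reached by 0.824% of 10923 windows), Cd4 had 6 (1.92% of 17175) and Cd3g-Cd3d-Cd3e had 6 (2.28% of 16027). Ptprc had 3, a number reached by 23.2% of 10447 windows. As densities, the order was Lck with 57.1 peaks per Mb (95% exact Poisson interval 24.7 to 113), Cd5-Cd6 with 45.5 (21.8 to 83.6), Cd4 with 42.9 (15.7 to 93.3), Cd3g-Cd3d-Cd3e with 40.0 (14.7 to 87.1) and Ptprc with 13.0 (2.69 to 38.1). All 5 intervals overlapped, which does not show that the densities are equal, and differences between the loci were not tested.

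The streptavidin counts gave the loci another order. All of their intervals overlapped too, those of Cd4 (34.3 to 131) and Ptprc (2.69 to 38.1) only narrowly. Such overlap does not show that the densities are equal. Neither the differences between loci nor the difference from the antibody order was tested. Cd4 had the highest density, with 10 peaks or 71.4 per Mb (34.3 to 131), a number reached by 1.20% of equal windows. Cd5-Cd6 had 11 peaks or 50 per Mb (24.96 to 89.5; 6.62% of equal windows) and Lck had 7, also 50 per Mb (20.1 to 103; 10.7%). Cd3g-Cd3d-Cd3e had 3 peaks or 20 per Mb (4.12 to 58.4), a number reached by 61.3% of equal windows, and Ptprc had 3 or 13.0 per Mb (2.69 to 38.1), reached by 78.1%. The CD3 genes were thus near the background in the streptavidin list and above it in the antibody list. In the third list Cd4 and Cd5-Cd6 had 3 intervals each (reached by 1.13% and 2.53% of equal windows), Cd3g-Cd3d-Cd3e and Lck had 2 each (4.29% and 3.81%), and Ptprc had 0.

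**Figure D1:**
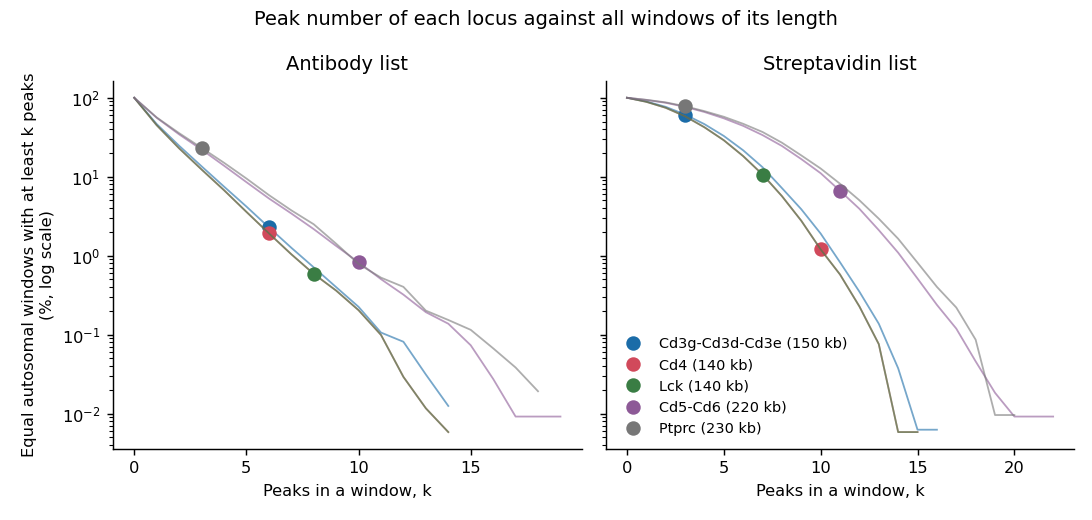
Share of equal, non-overlapping autosomal windows (%, log scale) that held at least k antibody (left) or streptavidin (right) peaks. Lines are the background for each window length (Cd4 and Lck share a length and so a line) and points mark the 5 loci. In the antibody list 4 loci lie at or below 2.28% and Ptprc at 23.2%, while in the streptavidin list only Cd4 lies that low, at 1.20%.

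Peaks called by both routes were examined next. An overlap of 1 base or more with a streptavidin peak was found for 11 of the 33 antibody peaks, 33.3% (exact interval 18.0 to 51.8), against 21.9% of the whole antibody list, a share inside that interval. Conversely, 10 of the 34 streptavidin peaks, 29.4% (15.1 to 47.5), met an antibody peak, against 6.20% of the whole streptavidin list, which lies below the interval. The streptavidin share was 4.74 times that of the list, beside an antibody density 5.85 times that of the list, and the part of that density in the share was not tested. The overlapping peaks lay at Cd4 (4 antibody and 3 streptavidin peaks), Cd5-Cd6 (3 and 3), Cd3g-Cd3d-Cd3e (2 and 2) and Lck (2 and 2). At Ptprc 0 of 3 peaks of each list overlapped, and with 3 peaks the exact interval reaches 70.8%.

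**Figure D2:**
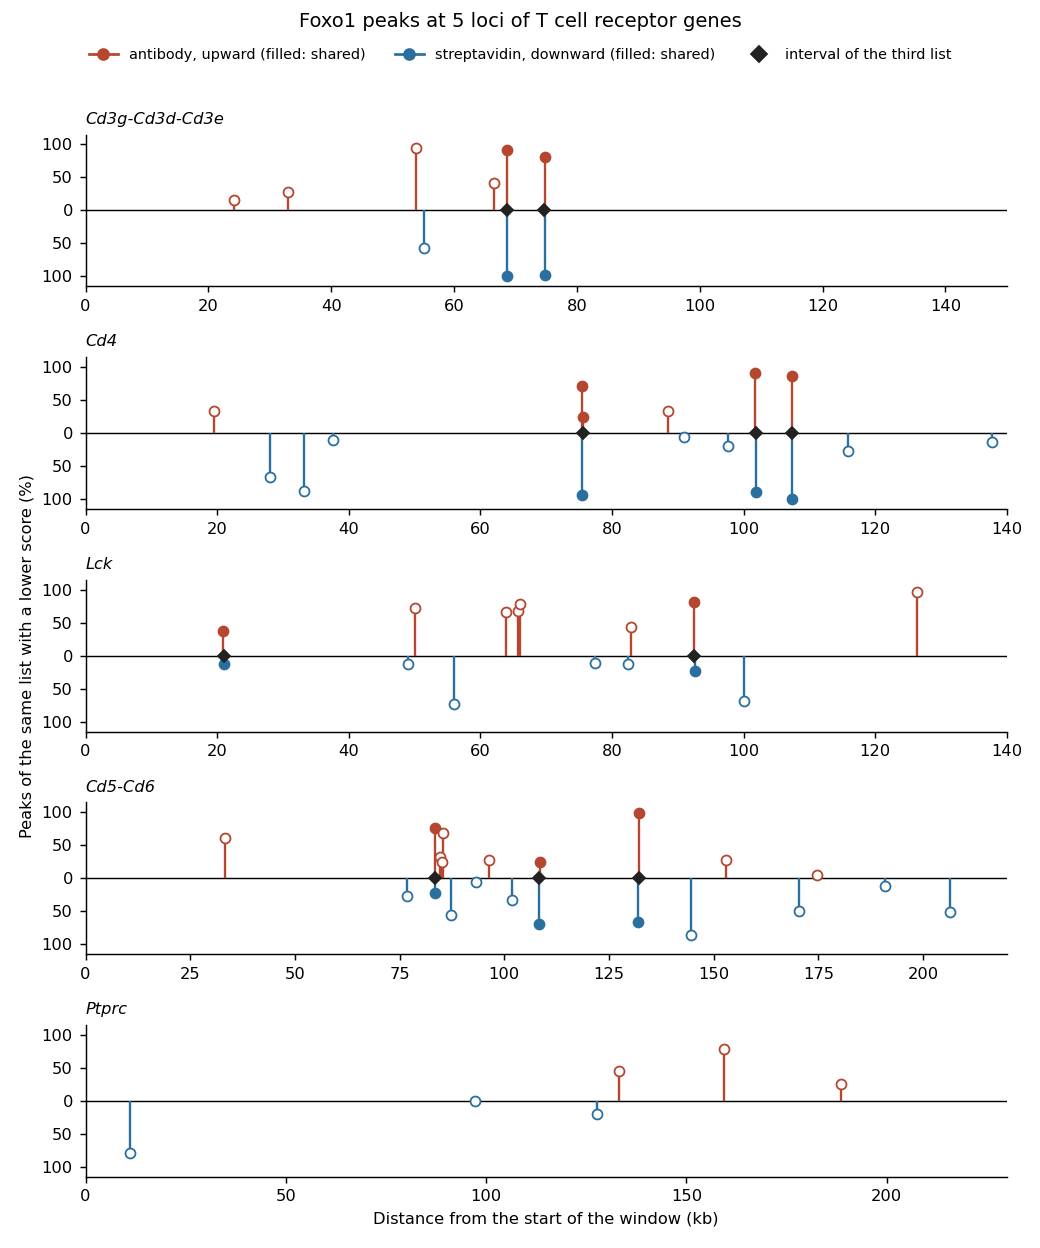
Every peak at the 5 loci by the distance of its centre from the start of the window (kb). Height is the share of the same list with a lower score (%), antibody upward and streptavidin downward, filled points overlap the other list and diamonds are the 10 intervals of the third list. Shared peaks occur at 4 loci and none at Ptprc.

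The score column has no header. It was taken, as an assumption, to be what the authors' peak caller assigned to each peak, and was used to rank peaks within a list but not between lists. The antibody members had a median score of 195 (range 94.7 to 1353), against 167 in the whole list. The streptavidin members had a median of 71.6 (53.1 to 313), against 74.7 in the whole list. Among antibody members 5 (15.2%) were in the top 10% of scores, where ties leave 9.99% of the list, and 3 of the 5 were shared. Among streptavidin members 4 (11.8%) were there, against 9.67% of the list, and all 4 were shared. In the whole lists 63.6% of the top antibody peaks and 25.4% of the top streptavidin peaks were shared. Shared members had median scores of 286 (antibody) and 101 (streptavidin), and unshared members 154 and 66.3. The whole lists showed the same order, with 252 and 98.0 for shared and 158 and 74.0 for unshared peaks. Median widths were 234 bases for antibody and 227 for streptavidin members, close to the 233 and 221 of the lists.

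At the CD3 genes, which encode the gamma, delta and epsilon chains of the receptor complex, both shared regions were among the strongest streptavidin peaks. The first had an antibody peak at chromosome 9, 44788504 to 44788748, with a score of 455, equalled or exceeded by 8.77% of the antibody list. Its streptavidin peak, 44788458 to 44788675, scored 194, in the top 1.35% of that list. The second region, its antibody centre 6118 bases further on, came with an antibody peak at 44794609 to 44794879 (score 291, top 18.7%) and a streptavidin peak at 44794580 to 44794905 (score 164, top 2.35%). The centres of that pair were 1.5 bases apart, the closest of all shared regions at these loci. Both regions were thus in the top 10% of scores by streptavidin, and only the first was so by the antibody.

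The highest antibody score at the CD3 genes belonged to a peak that was not shared. It lay at 44773608 to 44773866 with a score of 629 (top 5.23%), and the nearest streptavidin peak, 44774925 to 44775191 with a score of 77.4, was centred 1321 bases away. A further antibody peak at 44786480 to 44786660 (score 152) was 1996.5 bases from a streptavidin centre. The remaining antibody peaks, at 44744036 to 44744257 (score 112.1) and 44752805 to 44753040 (score 132), were 24982.5 and 22135.5 bases from one. All peaks of both lists were centred within 74.7 kb of the start of this 150 kb window.

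At Cd4, the co-receptor for MHC class II, 4 of 6 antibody peaks were shared, 66.7% (exact interval 22.3 to 95.7), against 21.9% of the whole antibody list. That interval overlapped those of all other loci. Of the 4 peaks, 2 lay under 1 streptavidin peak, so Cd4 had 3 shared regions, as many as Cd5-Cd6. The leading region had the highest streptavidin score of all 34 members, 313 at chromosome 6, 124867229 to 124867622, a score that only 0.412% of the streptavidin list reached. Its antibody peak, 124867300 to 124867477, scored 345.5 (top 13.7%), and the centres were 37.0 bases apart. The second region, with an antibody centre 5601.5 bases before it, had an antibody peak at 124861675 to 124861899 (score 444, top 9.03%) and a streptavidin peak at 124861720 to 124861980 (score 114, top 10.9%). Its counts were reached by 1.92% of equal windows for antibody and 1.20% for streptavidin peaks, and at each of the other loci the streptavidin value was 6.62% or more.

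The third Cd4 region held 2 antibody peaks under 1 streptavidin peak. The antibody peaks were at 124835239 to 124835515 (score 229.7) and 124835566 to 124835723 (score 124), 50 bases apart. The streptavidin peak reached over the gap, from 124835269 to 124835594, with a score of 127 (top 6.77%). The unshared antibody peaks at Cd4 had scores of 138 at 124779394 to 124779720 and 139 at 124848404 to 124848659. The 7 unshared streptavidin peaks scored 54.5 to 110.05 and lay 2337 to 30418 bases from an antibody centre.

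At Lck, which encodes the kinase that starts receptor signalling, 2 of 8 antibody peaks were shared, and their streptavidin peaks were weak. One shared pair was the antibody peak at chromosome 4, 129262301 to 129262568 (score 286, top 19.3%), with the streptavidin peak at 129262453 to 129262684 (score 64.55, top 77.5%). The other was the antibody peak at 129190741 to 129191001 (score 145, top 62.4%), with the streptavidin peak at 129190887 to 129191200 (score 58.75, top 87.7%). Their centres were 134 and 172.5 bases apart. The strongest streptavidin peaks at Lck, with scores of 90.8 at 129225916 to 129226120 and 86.35 at 129270023 to 129270180, met no antibody peak.

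The strongest antibody peak at Lck stood alone. It lay at 129296288 to 129296547 with a score of 809.5, in the top 3.45% of the antibody list, and the nearest streptavidin centre was 21574 bases away. A group of 3 antibody peaks, 7846.5 to 10010 bases from the nearest streptavidin centre, lay nearer the middle of the window, at 129233804 to 129233925 (score 208), 129235515 to 129235804 (216) and 129235922 to 129236134 (268). The last pair was 117 bases apart. The antibody peaks at 129219933 to 129220122 (score 230.2) and 129252728 to 129252942 (score 156) did not overlap a streptavidin peak but had a centre of one 981.5 and 371.5 bases away. The antibody peaks at Lck had a median score of 223, and its streptavidin peaks one of 59.2.

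At Cd5-Cd6, which encode receptors that restrain the T cell receptor signal, the antibody list had its strongest peak of all 33 members. That peak lay at chromosome 19, 10861981 to 10862172, with a score of 1353 (top 1.35%), and it overlapped a streptavidin peak at 10861942 to 10862122 whose score of 85.0 was reached by 33.4% of the streptavidin list. The centres were 44.5 bases apart. A strong peak by the antibody was here a middling one by streptavidin. The other shared pairs were the antibody peak at 10813225 to 10813536 (score 255) with the streptavidin peak at 10813270 to 10813608 (64.5), and the antibody peak at 10838304 to 10838569 (127) with the streptavidin peak at 10838008 to 10838358 (87.2). The last pair overlapped by 55 bases, with centres 253.5 bases apart, the widest of all shared regions at these loci.

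Some antibody peaks at Cd5-Cd6 lay close together, as did pairs at Cd4 and Lck. Over all antibody members 21.2% had another antibody centre within 1 kb, against 16.4% of the list. Within 903 bases, from 10814611 to 10815513, lay 3 unshared peaks with scores of 136 (ending at 10814844), 126 (10815106 to 10815332) and 218 (starting at 10815373), next to the shared peak at 10813225. The nearest streptavidin centres were 1288.5 to 1780 bases from these 3. The remaining antibody peaks were at 10763097 to 10763307 (score 195), 10826254 to 10826426 (131), 10882936 to 10883109 (132) and 10904448 to 10904682 (94.7, the lowest of the members). The highest streptavidin score at this locus, 109 at 10874574 to 10874705, belonged to an unshared peak 8383 bases from an antibody centre.

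At Ptprc, which encodes CD45, the peaks of the routes lay apart. Antibody peaks were at chromosome 1, 140033114 to 140033318 (score 158), 140059333 to 140059581 (score 270.5) and 140088464 to 140088738 (score 127). Streptavidin peaks were at 139911010 to 139911277 (score 96.1), 139997020 to 139997237 (score 53.1) and 140027520 to 140027758 (score 62.5). The closest approach was 5577 bases, between the last streptavidin and the first antibody peak. Peaks of neither list were in the top 10% of scores. The score 53.1 is close to the lowest of the streptavidin list, 53.01, and 2669 peaks carry it.

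Set side by side, the 10 shared regions fell on either side of equal rank. At Cd3g-Cd3d-Cd3e and Cd4 the 5 shared regions had streptavidin scores of 114 to 313, in the top 0.412% to 10.9% of the list. At Lck and Cd5-Cd6 the 5 shared regions had streptavidin scores of 58.75 to 87.2, reached by 30.9% to 87.7% of the list. These ranges did not overlap. The antibody scores of the same regions did overlap, at 229.7 to 455 and 127 to 1353. The streptavidin peak ranked higher in its list than the antibody peak in 5 regions, and lower in 5. This split of the loci was chosen after the values were seen and was not tested.

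**Figure D3:**
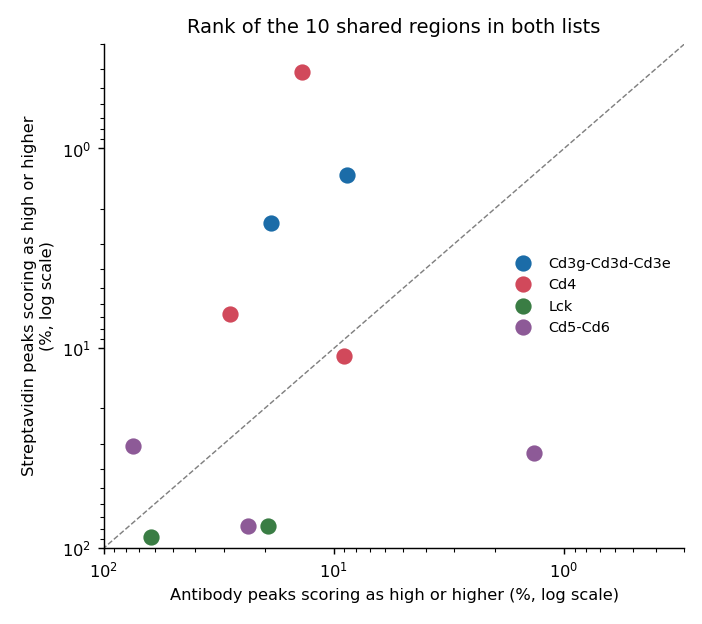
Rank of the strongest antibody and streptavidin peak of each of the 10 shared regions, as the share of the list with an equal or higher score (%, log scales, stronger to the right and upward). The dashed line marks equal rank. The 5 regions at Cd3g-Cd3d-Cd3e and Cd4 lie at 10.9% or higher in rank by streptavidin, and the 5 at Lck and Cd5-Cd6 lie at 30.9% or lower.

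In the shared regions the centres of the strongest peaks were a median of 59.0 bases apart (range 1.5 to 253.5), against 58.0 over all 3431 intervals of the third list. In 3 of the 10 regions they were within 50 bases, a distance kept by 44.9% of all intervals. The overlap of the peaks was 55 to 271 bases. At Cd3g-Cd3d-Cd3e and Cd4 the centres were 1.5 to 63.0 bases apart, and at Lck and Cd5-Cd6 44.5 to 253.5 bases, ranges that overlap. The third list's intervals at these loci were 306 to 942 bases wide (median 448, against 453 in the whole list). Of the 10, 4 equalled the union of the peaks they held, at Lck (129190741 to 129191200 and 129262301 to 129262684), Cd5-Cd6 (10838008 to 10838569) and Cd4 (124861675 to 124861980).

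The other 6 intervals of the third list reached beyond their peaks by 52 to 457 bases. They were 44788422 to 44788821 and 44794441 to 44794935 at the CD3 genes, 124835105 to 124836046 and 124867105 to 124867627 at Cd4, and 10813225 to 10813660 and 10861918 to 10862260 at Cd5-Cd6. The interval with both antibody peaks at Cd4 reached furthest, by 457 bases.

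Some unshared peaks lay close to a peak of the other list. A streptavidin centre lay within 2 kb of 7 of the 22 unshared antibody peaks (31.8%), while the whole list gave 16.9%. They were 3 at Cd5-Cd6, 2 at Lck and 2 at the CD3 genes. An antibody centre lay within 2 kb of 4 of the 24 unshared streptavidin peaks (16.7%), while the whole list gave 3.49%. The median distance was 6712 bases for unshared antibody members and 6297 for unshared streptavidin members, against 10298 and 58910 in the lists. Antibody peaks were 5.85 times and streptavidin peaks 1.72 times as dense here as in their lists. The part of these densities in the distances was not tested, and no intervals were computed for the shares within 2 kb. Within the antibody list 7 of 33 members (21.2%) had another antibody centre within 1 kb, against 16.4% of the list. In the streptavidin list 0 of 34 had such a neighbour, against 5.95%.

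**Figure D4:**
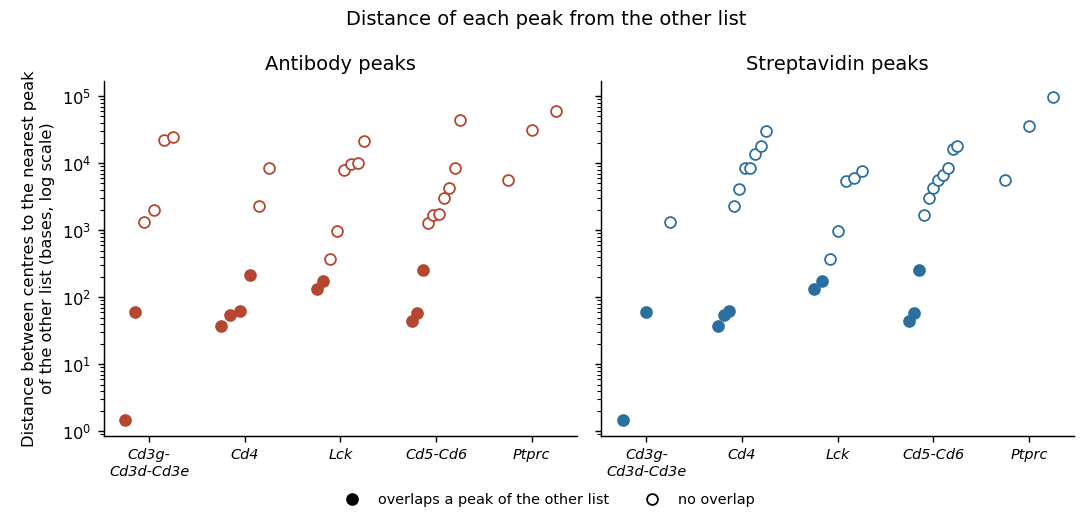
Distance from the centre of each peak to the nearest centre of the other list (bases, log scale) by locus, for antibody peaks (left) and streptavidin peaks (right). Each point is 1 peak, filled where it overlaps the other list. Shared peaks lie at 253.5 bases or less, and the 3 peaks of each list at Ptprc lie at 5577 bases or more.

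The window edges decided a few memberships. Streptavidin peaks with scores of 67.5 and 70.07 were centred 0.837 and 0.315 kb before the Cd3g-Cd3d-Cd3e and Cd4 windows and were not counted. Just past the end of the Lck window, at 7.98 and 7.99 kb, an antibody peak (score 196) and a streptavidin peak (score 58.5) lay within an interval of the third list. An antibody peak with a score of 145 lay 4.71 kb after the Cd5-Cd6 window and another, of 193, 14.8 kb after the Ptprc window. The members nearest an edge were streptavidin peaks 2.19 kb inside the Cd4 window (score 59.5) and 11.1 kb inside the Ptprc window (96.1).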

How the data were processed

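Peaks of 1 ChIP library per route were analysed as deposited. CASAVA 1.4, Bowtie 0.12.7, MACS 1.4 and the build mm9 are named per the submitters' processing notes, without roles or settings. The score deposited by the authors for each antibody and streptavidin peak has no header and was assumed to be that of the peak caller, and the file names state a false discovery rate of 0.01. Control and pooling are not given in the sources used here. Read depth is unknown. Members were taken by peak centre. Overlap meant at least 1 base. Background came from the whole lists and from non-overlapping autosomal windows of equal length. All antibody peaks and third-list intervals are named, with streptavidin peaks that were shared or among the 3 highest of a window. Python 3.11.15, NumPy 2.4.6, pandas 2.3.3 and SciPy 1.17.1 were used. Overlaps were checked against bedtools 2.31.1 and on simulated data. Members and lists were chosen with earlier results of these data known. Other receptor genes and motifs under peaks were not analysed here.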

Additional observations from a re-analysis of the deposited data

How the results depend on the processing

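The density ratios kept their direction under every alternative run for them, at 5.27 to 7.20 for antibody, 1.44 to 2.12 for streptavidin and 7.08 to 11.5 for third-list peaks. For all lists each locus was also left out in turn, an alternative chosen after seeing the data. For the third-list ratio the only other alternative, also not planned, was autosomes alone as background. Changed windows and joined peaks were not run for it. The antibody and third-list intervals stayed above 1. The streptavidin interval included 1 with scores of at least 100 (0.779 to 3.99), in the higher-scoring 50% (0.999 to 2.75), with lists of equal length (0.729 to 3.03), without Cd4 (0.924 to 2.15) and without Cd5-Cd6 (0.983 to 2.33). Keeping the higher-scoring 50% of each list left 17 antibody and 17 streptavidin members. With scores of at least 100, 7 streptavidin members remained, 71.4% of them shared against 16.1% of that list. With a streptavidin list as long as the antibody list there were 9, 55.6% of them shared against 12.7%. Both settings keep fewer, stronger streptavidin peaks by construction. The antibody share ran from 18.2% to 39.4% and the streptavidin share from 17.6% upwards. The whole-list shares moved with the setting and were computed for some settings only. With overlap of 50% of each peak they were 15.8% for antibody, against 18.2% of members, and 4.50% for streptavidin, against 17.6%. With centres within 1 kb they were 29.98% against 39.4%, and 8.05% against 35.3%. Wherever a list share was computed, it lay inside the antibody interval and below the streptavidin interval. Median scores of shared members alone were 286 and 101. No paired analysis was possible because each group has 1 library. For the same reason no replicate could be left out. Alternatives on motifs under peaks were not run without an mm9 genome. Whether unshared peaks fell just under the authors' threshold cannot be measured without reads.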
